A study of Mus musculus with 8 samples.

Results

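Bone formation genes are the genes by which osteoblasts, the cells that build bone, and osteocytes, the cells they become once walled into it, are known. The set held 9 mouse genes chosen by name: Runx2, Sp7, Alpl, Ibsp, Spp1, Bglap, Dmp1, Phex and Sparc. They were read on Affymetrix probe sets, groups of short probes on the array, that the platform annotation assigns to 1 of these symbols alone. By that rule 6 of the 9 genes were measured, Sp7, Alpl, Ibsp, Sparc, Dmp1 and Phex, on 12 probe sets, out of 18194 genes on the arrays. No probe set named Runx2, Spp1 or Bglap alone in the annotation used, and these 3 genes are not analysed here. The choice used no measured value of this series, although earlier results of the data were known when it was made.

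The RNA came from palates, by the labels their rear part, of BALB/c pups on day 1 after birth. Their mothers had carried a pump under the skin since pregnancy that released sterile physiological saline, or else nicotine at a daily dose of 1.5, 3.0 or 4.5 mg/kg. Each of these 4 groups had 2 arrays, labelled as biological replicates, 8 arrays in all. All groups shared the strain, the age, the pump and the incision for it. The labels speak of 2 pups, without saying whether per array or per group, and name no litters, so that p-values measure the spread between these samples.

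In the palate, bone forms directly from mesenchyme, without a cartilage stage. Runx2 and Sp7 are the transcription factors that commit cells to the osteoblast fate, and Sp7 acts after Runx2. Osteoblasts then lay down a collagen matrix that carries acidic proteins such as bone sialoprotein, and alkaline phosphatase on their surface removes pyrophosphate, which blocks mineral. Osteocytes make Dmp1 and Phex, which act on phosphate balance and mineralization, in mouse and in human.

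Ibsp and Dmp1 are neighbours on mouse chromosome 5, in the order Dspp, Dmp1, Ibsp, Mepe and Spp1 in the RefSeq gene table for GRCm38.p6. Over the 8 arrays their levels correlated at r = 0.83, as did those of Ibsp and Sparc. Without saline replicate 2 the neighbours Ibsp and Dmp1 stood at r = 0.21, as described below. The 250 bases before their starts are shown, from RefSeq on GRCm38.p6. Dmp1 has 2 starts in that table. Capitals mark the core of the sites that RUNX factors bind, TGTGGT, read on either strand (ACCACA on the strand shown), and the core of sites bound by DLX and MSX homeodomain proteins, TAATTA, which reads alike on both strands. No match of 1 motif overlapped a match of the other.
Ibsp, chr5:104299037-104299286, plus strand: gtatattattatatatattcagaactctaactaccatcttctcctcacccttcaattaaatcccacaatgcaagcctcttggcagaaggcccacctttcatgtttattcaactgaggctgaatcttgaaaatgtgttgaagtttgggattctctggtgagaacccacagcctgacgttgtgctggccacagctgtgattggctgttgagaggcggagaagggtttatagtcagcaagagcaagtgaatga
Dmp1, first start, chr5:104197325-104197574, plus strand: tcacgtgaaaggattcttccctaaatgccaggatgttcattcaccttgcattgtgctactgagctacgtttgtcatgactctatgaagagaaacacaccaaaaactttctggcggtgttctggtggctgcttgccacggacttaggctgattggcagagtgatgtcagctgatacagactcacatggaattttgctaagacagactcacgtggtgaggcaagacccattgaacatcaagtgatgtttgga
Dmp1, second start, chr5:104202367-104202616, plus strand: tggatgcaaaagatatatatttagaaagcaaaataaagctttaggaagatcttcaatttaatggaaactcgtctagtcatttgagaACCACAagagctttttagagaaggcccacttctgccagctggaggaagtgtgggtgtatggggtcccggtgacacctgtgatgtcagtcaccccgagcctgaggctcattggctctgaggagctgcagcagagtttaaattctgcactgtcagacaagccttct

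The second Dmp1 window held 1 RUNX core, 164 bases before the start. Neither motif was found in the other 2 windows shown. In all, 5 of the 6 measured genes had a promoter in the table, with 7 windows, and the Dmp1 match was the only one among them. Of 32851 such windows of all genes, 14.0% held the RUNX core and 4.84% the homeodomain core. A match is a run of letters and not a shown binding site, and no match says only that these letters are missing from the window.

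The arrays did not hold palate markers alone. Genes of the stomach (10) had median log2 levels of 4.70 to 4.91 on the nicotine arrays and of 8.22 and 8.49 on the saline arrays. Liver genes (12) stood at 9.98 on nicotine 1.5 replicate 2 and at most at 4.74 on the other nicotine arrays, and at 9.12 and 11.67 on saline replicates 1 and 2. Kidney genes (9) reached 8.71 on saline replicate 2 and at most 5.34 elsewhere. Genes of some other tissues were mostly higher on the nicotine arrays. Skeletal muscle genes (13) had medians of 12.07 to 12.32 on the nicotine arrays and 11.84 and 11.54 on the saline arrays, and fibroblast genes (9) of 9.33 to 10.16 and of 9.31 and 8.79. Brown fat genes (9) stood at 7.26 to 11.27 on the nicotine arrays and 7.47 and 5.91 on the saline arrays, and lung genes (10) at 4.66 to 9.70 and at 4.61 and 4.81. Of 12 genes that pattern the face and jaws, 6 to 8 lay above the level filter on each array, whereas none of 8 tooth genes did on any array. Hox genes of groups 9 to 13, read as markers of body position, differed between arrays. Of 12 such genes, 9 lay above the filter on each saline array, 10 on nicotine 1.5 replicate 1, and 3 to 6 on the other nicotine arrays. Signal of actin probes at the 3' end over those at the 5' end, which climbs as RNA breaks down, gave a ratio of 0.954 to 1.39 on the nicotine arrays and of 1.74 and 1.65 on the saline arrays. The saline pair and the nicotine 1.5 pair were less alike (r = 0.891 and 0.898 between replicates) than the pairs at 3.0 (0.982) and 4.5 (0.954), and results that rest on the saline arrays are given with and without each. In tissue such as this, a difference in the number of bone cells and a difference in RNA per bone cell cannot be told apart.

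None of the 6 measured genes differed past the limit between nicotine and saline, at any dose or on average over the doses. With the mean of the 3 doses, 5 of the 6 had a positive difference, from 0.32 to 1.68 log2 units, and Sp7 stood at -0.02. Differences were taken between normalized log2 levels, with limma, and a gene was counted as changed at a Benjamini-Hochberg adjusted p under 0.05 over all 13587 genes tested. In the same comparison 10.2% of all genes changed, 4.75% (646) upwards and 5.4% (734) downwards, and without normalization the split was 346 upwards and 926 downwards. Adjusted p-values of the 6 genes lay between 0.0807 and 0.965. Before adjustment, 3 of the 6 (Dmp1, Phex and Sparc) had p under 0.05, as had 30.7% of all genes. The median of the 6 differences was 0.65, and that of all genes was 0.07, with 55.9% of all genes positive. Lists of other cell types shifted too, in both directions. Of 9 stomach, 8 intestine and 12 liver genes 0 were positive (medians -3.62, -4.11 and -4.77), and of 7 kidney genes 1 was (median -2.61). All 13 skeletal muscle genes were positive (median 0.62, 4 rose), as were 8 of 9 fibroblast genes (median 0.60, 1 rose), 9 of 9 brown fat genes (median 2.61, 4 rose) and 7 of 9 lung genes (median 2.97, 0 changed). Their part in the differences of the bone genes was not tested.

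**Figure D1:**
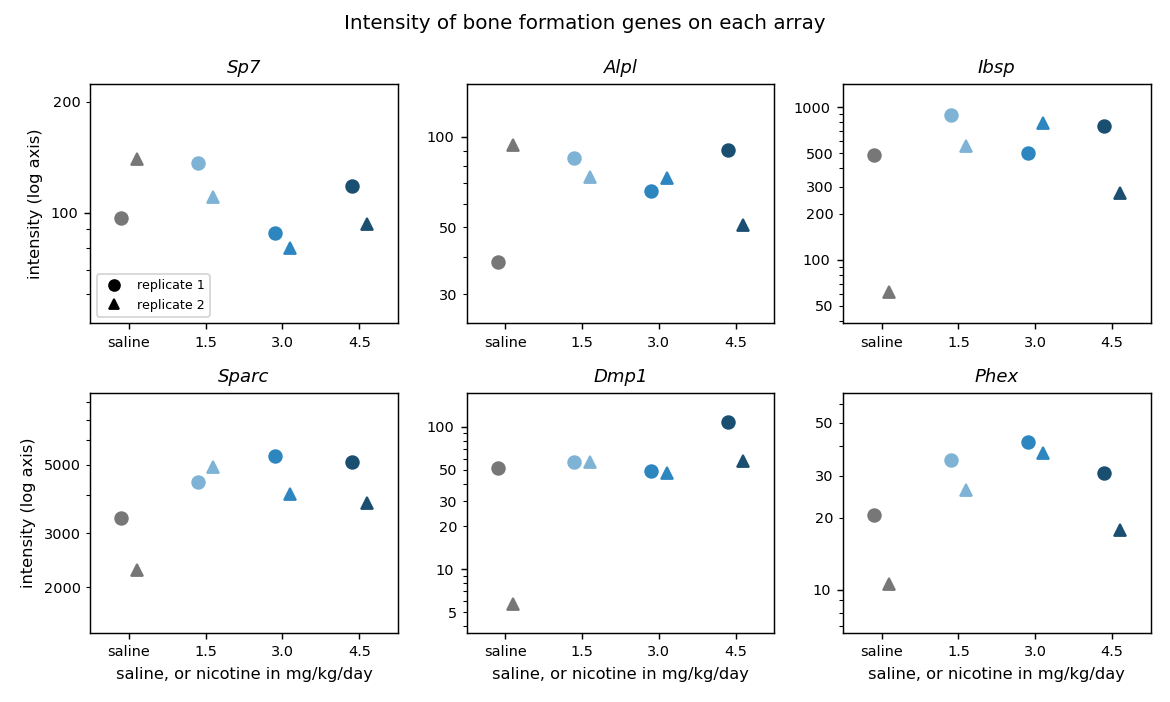
Intensity as deposited (log axis) of the 6 measured genes on each of the 8 arrays, by dose, with circles for replicate 1 and triangles for replicate 2. Each panel has its own scale, because levels of different probe sets cannot be compared. Saline replicate 2 is the lowest array for Ibsp, Sparc, Dmp1 and Phex and the highest for Sp7 and Alpl.

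Sp7 (osterix) is the transcription factor without which mouse osteoblasts do not mature. Its probe set had intensities of 96.38 and 139.79 on the saline arrays, 136.55 and 110.04 at nicotine 1.5, 87.93 and 80.26 at 3.0, and 118.16 and 93 at 4.5 mg/kg/day. In intensity the higher saline array was the highest of the 8, and nicotine 3.0 held the lowest pair. On the normalized scale nicotine 1.5 replicate 1 was the highest (7.33, against 7.22 on saline replicate 2), and every nicotine group overlapped saline. The differences from saline were 0.17 ± 0.25 (SE), -0.27 ± 0.25 and 0.05 ± 0.25 log2 units with rising dose, with adjusted p-values of 0.733, 0.543 and 0.921. Nicotine 3.0 had the lowest group mean, 6.67 ± 0.06 (SD, n = 2), and nicotine 1.5 the highest, 7.12 ± 0.29. The order was 3.0, saline, 4.5 and 1.5, and each neighbour in it overlapped the next.

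Alpl encodes the tissue-nonspecific alkaline phosphatase, which frees phosphate for mineral and is also made in kidney and liver. It was read at 38.52 and 93.86 on the saline arrays, 85.3 and 73.4 at nicotine 1.5, 66.32 and 72.76 at 3.0, and 90.24 and 50.79 at 4.5. The 2 saline arrays were the lowest and the highest of the 8 in intensity, so that all nicotine values fell between them. Averaged over the doses it differed by 0.32 ± 0.32 (adjusted p = 0.519). The highest intensity, on saline replicate 2, lay on the array highest in kidney and liver genes, and the part of those tissues in it was not tested. After normalization nicotine 4.5 replicate 1 was the highest, at a log2 level of 6.8 against 6.72 on saline replicate 2.

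Ibsp encodes bone sialoprotein, an acidic matrix protein of mineralizing bone that binds integrins and starts mineral crystals. Its brighter probe set had 488.07 and 61.83 on the saline arrays, 889.64 and 553.07 at nicotine 1.5, 497.49 and 792.26 at 3.0, and 754.86 and 274.91 at 4.5. Saline replicate 2 was the lowest array by far, and nicotine 4.5 replicate 2 fell between the saline arrays. The 4 arrays at 1.5 and 3.0 lay above both saline arrays, nicotine 3.0 replicate 1 only just. Within saline the higher array was 7.89 times the lower, which on the normalized scale is a gap of 2.71 log2 units, wider than that of 98.6% of the genes tested or equal to it. The median gap over all genes was 0.3.

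Against this spread, Ibsp differed from saline by 2.02 ± 0.88 at nicotine 1.5, 1.69 ± 0.88 at 3.0 and 1.32 ± 0.88 at 4.5, none past the limit (adjusted p of 0.247, 0.278 and 0.353). The average over the doses was 1.68 ± 0.72, a fold of 3.2 (adjusted p = 0.167). The second Ibsp probe set followed the first over the 8 arrays with r = 0.97, and its nicotine arrays averaged 128 ± 54.8 in intensity (SD, n = 6), against 55.2 ± 52.7 on the saline arrays (n = 2). Mean log2 levels rose in the order saline, 4.5, 3.0 and 1.5, and each neighbour in that order overlapped the next.

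Sparc encodes osteonectin, a collagen-binding matrix protein that osteoblasts make and that fibroblasts and endothelium make too. Its brightest probe set was at 3347.9 and 2278.57 on the saline arrays, 4411.67 and 4909.31 at nicotine 1.5, 5333.06 and 4006.25 at 3.0, and 5122.51 and 3744.75 at 4.5. All nicotine arrays were above both saline arrays, both as deposited and after normalization. The difference averaged over the doses was 0.64 ± 0.20 (adjusted p = 0.0884), and at the single doses 0.70 ± 0.25, 0.62 ± 0.25 and 0.59 ± 0.25 (adjusted p from 0.169 to 0.182). A second bright probe set showed a smaller difference. It averaged 3706 ± 316 on the nicotine arrays (n = 6), against 2863 ± 796 on the saline arrays (n = 2). After normalization these were 0.27 log2 units apart, and each nicotine group overlapped saline. In intensity the arrays at 1.5 and 3.0 lay above both saline arrays, and 4.5 overlapped saline. The remaining probe set lay under the level filter.

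Dmp1 encodes dentin matrix protein 1, an acidic phosphoprotein of early osteocytes and of dentin. Its brightest probe set read 51.58 and 5.73 on the saline arrays, 56.62 and 56.98 at nicotine 1.5, 49.26 and 47.42 at 3.0, and 107.72 and 57.51 at 4.5. Again saline replicate 2 was the lowest, 9 times under saline replicate 1, and nicotine 4.5 replicate 1 the highest. The reading on saline replicate 2, a log2 level of 4.45, lay under the level filter of 4.94. On the normalized scale the gap within saline was 1.48 log2 units. The differences were 0.98 ± 0.47 at nicotine 1.5, 0.86 ± 0.47 at 3.0 and 1.47 ± 0.47 at 4.5 (adjusted p of 0.294, 0.307 and 0.102), with 1.10 ± 0.39 for their average (adjusted p = 0.112). The other 2 probe sets of Dmp1 followed the first with r = 0.95 and 0.97, and 1 of them lay under the filter. Dspp, the dentin gene beside Dmp1, had intensities of 1 to 2.36 on all arrays, and Mepe, on the far side of Ibsp, of 1 to 5.97, so that both stood under the filter.

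Phex encodes a membrane endopeptidase of osteocytes, on the X chromosome, whose loss causes low blood phosphate in mouse and human. It was read at 20.54 and 10.54 on the saline arrays, 34.91 and 26.23 at nicotine 1.5, 41.6 and 37.57 at 3.0, and 30.86 and 17.85 at 4.5. Nicotine 3.0 was the highest group, and saline replicate 2 the lowest array, at a log2 level of 4.75, under the level filter of 4.94. In mean level, Phex stood at or above 13.9% of the genes tested. Its difference was the one with the lowest adjusted p of the set, 0.65 ± 0.20 averaged over the doses (adjusted p = 0.0807). At nicotine 3.0 it was 0.92 ± 0.24 (adjusted p = 0.0881), at 1.5 it was 0.59 ± 0.24 (adjusted p = 0.23), and at 4.5 it was 0.46 ± 0.24 (adjusted p = 0.254). Xist, which coats the X chromosome that female cells silence, read 7.82 on saline replicate 1 and 6.44 on nicotine 3.0 replicate 1 and 702.72 to 1144.5 elsewhere. On these 2 arrays Phex was at 20.54 and 41.6, and the part of pup sex in its readings was not tested. A second Phex probe set stayed at 1 to 1.47 on all arrays, under the filter, and carries no information on the gene's level.

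**Figure D2:**
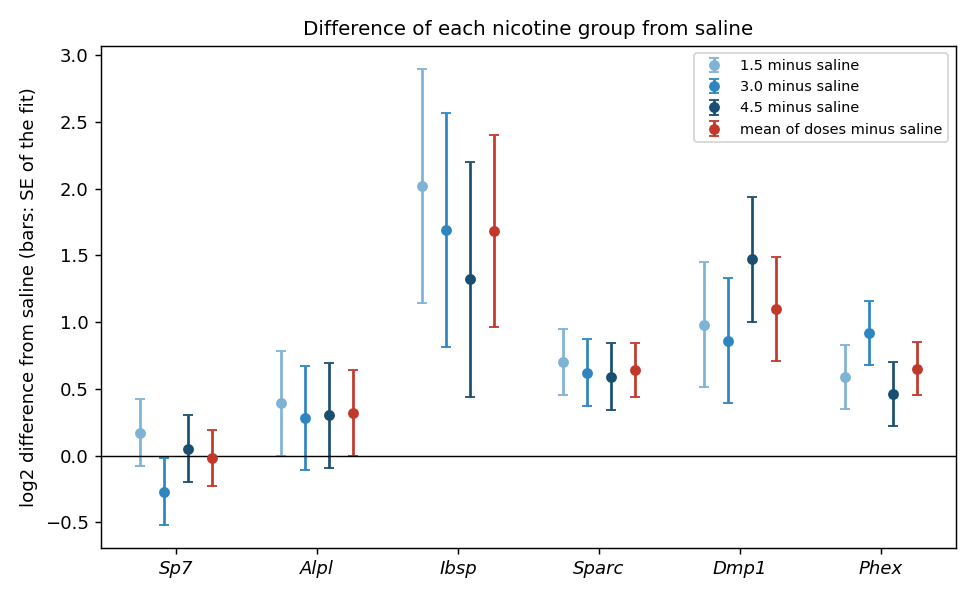
Difference of each nicotine group, and of the mean of the 3 doses, from saline for the 6 genes, in log2 units of normalized level, with bars for the standard error of the fit. Ibsp and Dmp1 have the largest differences and the widest bars, and no difference passed the limit.

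The single doses gave the same picture of counts. At nicotine 1.5 none of the 6 genes changed, where 2.48% of all genes did, and all 6 differences were positive (median 0.65, against 0.04 over all genes). At 3.0 none changed, where 3.73% of all genes did, with 5 of 6 positive (median 0.74, against 0.06). At 4.5 none changed, where 6.87% of all genes did, with all 6 positive (median 0.53, against 0.06). Before adjustment 2 of the 6 had p under 0.05 at each dose, Phex and Sparc at 1.5 and 3.0 and Dmp1 and Sparc at 4.5, and so had 21.1%, 25% and 29.2% of all genes. These comparisons share the 2 saline arrays and are not independent of each other.

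No trend with dose passed the limit either. A straight line over the doses had slopes from -0.02 for Sp7 to 0.29 ± 0.10 log2 units per mg/kg/day for Dmp1, with adjusted p-values of 0.119 to 0.839, and 0 of the 6 genes changed, where 0.802% of all genes did. Dmp1 alone had an unadjusted p under 0.05 for the slope (0.0188), as had 27.2% of all genes. An F test among the 3 nicotine doses called none of the 6 genes (adjusted p of 0.743 to 0.989) and 0% of all genes. In that test no member had an unadjusted p under 0.05, while 7.87% of all genes had.

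In normalized levels, all 6 nicotine arrays lay above both saline arrays for 3 of the 6 genes, Dmp1, Phex and Sparc, as they did for 16.8% of all genes. At the single doses both arrays lay above saline for 4 of the 6 genes at 1.5, 4 at 3.0 and 3 at 4.5, against 27.4%, 34.8% and 32.2% of all genes. In intensities as deposited all 6 nicotine arrays lay above saline for Sparc alone, and for 11.1% of all genes. The Dmp1 readings at nicotine 3.0 and the Phex reading on nicotine 4.5 replicate 2 were lower than those on saline replicate 1 before normalization. No gene of the set had all nicotine arrays below saline, which 12.6% of all genes had.

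How large the difference appeared depended on which saline array stood for the controls. Set against saline replicate 2 alone, Ibsp was higher on average over the doses by 3.05 ± 0.55 log2 units (adjusted p = 0.0237) and Dmp1 by 1.82 ± 0.29 (adjusted p = 0.0166). Against saline replicate 1 alone, the same differences were 0.32 ± 0.55 (adjusted p = 0.75) and 0.36 ± 0.29 (adjusted p = 0.474). Sparc stood at 0.90 ± 0.23 and 0.37 ± 0.22 in these 2 settings, and Phex at 0.81 ± 0.25 and 0.48 ± 0.25. Alpl stood at -0.22 ± 0.28 against replicate 2 and at 0.86 ± 0.28 against replicate 1, and Sp7 at -0.29 ± 0.23 and 0.25 ± 0.23, none past the limit. In these fits the lone saline array is assumed to vary like the other groups.

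**Figure D3:**
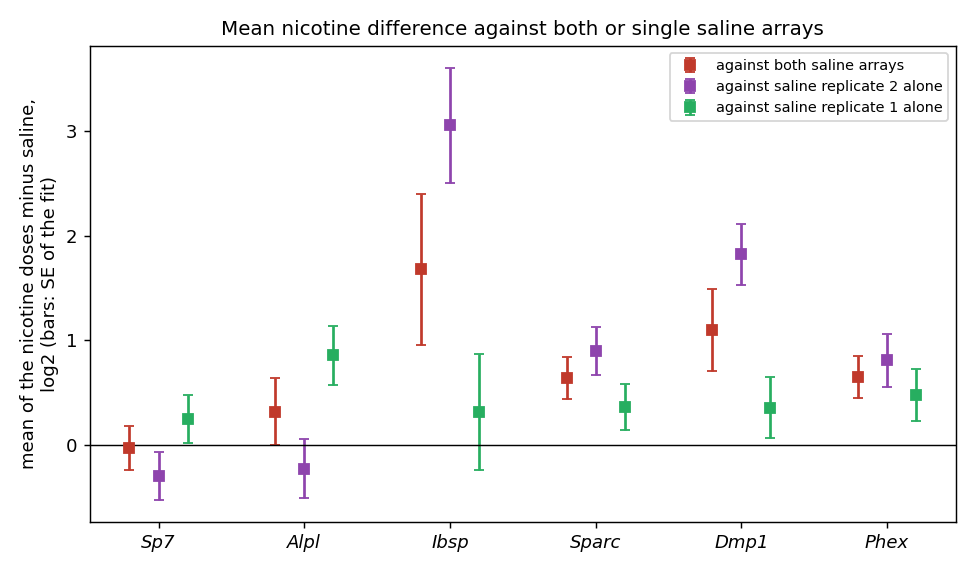
Mean of the nicotine doses minus saline (log2, bars for the standard error of the fit) for the 6 genes, against both saline arrays, saline replicate 2 alone or saline replicate 1 alone. Ibsp stands at 3.05 against replicate 2 and 0.32 against replicate 1, while Sp7 and Alpl move the other way.

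The 6 genes fell into 2 sets by how they varied, given here as correlations over arrays that share groups and normalization. Over the 8 arrays, Ibsp correlated with Dmp1, Sparc and Phex at r = 0.83, 0.83 and 0.80, and Sp7 with Alpl at r = 0.69. Across the sets, Sp7 and Ibsp stood at r = -0.16 and Alpl and Ibsp at 0. Saline replicate 2 weighed heavily in this. Without it, Ibsp and Dmp1 stood at r = 0.21, Ibsp and Sparc at 0.34, and Alpl and Ibsp stood at 0.66. Among the 6 nicotine arrays alone, the closest pair was Alpl and Ibsp, at r = 0.90, and Ibsp and Dmp1 stood at 0.14. All 6 genes were higher on nicotine 4.5 replicate 1 than on replicate 2.

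Genes of the osteoclast, the cell that resorbs bone, were read beside them. Ctsk, the collagen-degrading cathepsin of osteoclasts, had 152 and 61 on the saline arrays, 514 and 303 at nicotine 1.5, 288 and 433 at 3.0, and 420 and 212 at 4.5. Averaged over the doses it rose by 1.78 ± 0.40 (adjusted p = 0.0407), and Mmp9, the gelatinase of the same cells, by 1.69 ± 0.31 (adjusted p = 0.0236). These were 2 of 11 osteoclast genes tested, in a comparison where 4.75% of all genes rose, and 7 of the 11 were positive, with a median of 0.21. Neither call held without saline replicate 2, either array of nicotine 3.0 or nicotine 4.5 replicate 1, and that of Ctsk was also lost without nicotine 1.5 replicate 1 or nicotine 4.5 replicate 2 (adjusted p from 0.0506 to 0.171). Both were also lost with array weights (Ctsk 0.0822, Mmp9 0.0674, as adjusted p) and without the 2 arrays highest in liver genes (0.0836 and 0.0704), and Ctsk with a pseudocount of 64 (0.0501). Ctsk followed Ibsp with r = 0.92 over the 8 arrays and 0.97 over the nicotine arrays, and Mmp9 with 0.87 and 0.97. Acp5, the acid phosphatase by which osteoclasts are stained, did so at 0.37 and 0.83, and differed by 0.21 ± 0.46. Of the 11 osteoclast genes, 3 followed Ibsp with r over 0.7 on the 8 arrays (median r 0.37), against 13 of 23 osteoblast matrix genes (median 0.78), 5 of 13 skeletal muscle genes (median 0.67) and 6.09% of all genes (median 0.09). Over the nicotine arrays alone, r exceeded 0.7 for 4 of 11 osteoclast, 3 of 23 matrix and 0 of 13 muscle genes. Of all genes, 6.12% did so there. Ctsk, Mmp9 and Acp5, like Col10a1, Xist, Dspp and Mepe, were singled out after their values were seen.

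Cartilage was high on 1 array. The 15 cartilage genes had a median log2 level of 9.35 on nicotine 1.5 replicate 1 and of 4.79 to 5.82 elsewhere. Col10a1, the collagen of cartilage about to be replaced by bone, was at 290 there and at 3.09 to 16.9 on the other arrays. The same array had the highest Ibsp reading, and the part of growth cartilage in it was not tested. Of the 15 cartilage genes, 0 changed in any comparison with saline. With the mean of the doses 14 were positive (median 0.76), and the median difference was 2.13 at nicotine 1.5 and -0.06 at 4.5. Keratinocyte genes (9) were also highest on nicotine 1.5 replicate 1, with a median log2 level of 10.29 against 6.14 to 7.62 elsewhere.

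The wider pathway of bone formation was read in 4 lists of other genes, with 58 tested beside the 6. With the mean of the doses 8 of the 58 changed, or 13.8%, against 10.2% of all genes, 3 upwards and 5 downwards. Of the 58, 45 had a positive difference.

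Among 21 regulators of osteoblasts, 1 rose and 3 fell, with a median difference of 0.20 against 0.07 over all genes. Fgfr1, a receptor for fibroblast growth factors in early osteoblasts, rose by 1.12 ± 0.22 (adjusted p = 0.0278). Bmp2, a bone morphogenetic protein that drives osteoblast formation, fell by 1.19 ± 0.23 log2 units (adjusted p = 0.0268). Its intensities were 210 and 148 on the saline arrays, 103 and 65.3 at nicotine 1.5, 63.2 and 51 at 3.0, and 44.1 and 53.8 at 4.5. All nicotine arrays lay below both saline arrays, also in normalized levels, where 12.6% of all genes had this. Ihh, the hedgehog of growth cartilage and of gut epithelium, changed by -1.15 ± 0.25 (adjusted p = 0.0365). It read 46 and 49.2 on the saline arrays, 31.7 and 9.54 at nicotine 1.5, and 6.06 to 11.5 at 3.0 and 4.5. Its log2 level lay under the filter of 4.94 on every nicotine array but 1.5 replicate 1. The average of Ihh thus passed the filter only through its higher readings, mainly those on saline. Tnfrsf11b (osteoprotegerin), the secreted decoy that holds back osteoclast formation, changed by -0.74 ± 0.16 (adjusted p = 0.0383). It was dim, at 43.3 and 36.3 on the saline arrays and 6.59 to 24.4 on the nicotine arrays. Both arrays at 4.5 lay under the filter, at log2 levels of 4.51 and 4.87. Beside these falls, 8 of 9 stomach genes and 8 of 8 intestine genes fell in the same comparison. The part of gut tissue in the falls was not tested.

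Matrix genes of osteoblasts were mostly higher but rarely past the limit. Of 23 tested, 21 had a positive difference, as had 55.9% of all genes, with a median of 0.59, and 1 changed. Fibroblast genes, with a median of 0.60, and skeletal muscle genes, with 0.62, were shifted about as far, and their part in the matrix genes was not tested. That gene was Omd (osteomodulin), a proteoglycan of mineralized matrix, which rose by 1.49 ± 0.28 (adjusted p = 0.0263). It was read at 50.2 and 13 on the saline arrays, 151 and 115 at nicotine 1.5, 61.9 and 68.2 at 3.0, and 99.8 and 119 at 4.5. Each nicotine array was above both saline arrays, also in normalized levels, where 16.8% of all genes had this. Cthrc1, a secreted protein of matrix-forming cells, stood at 1.12 ± 0.31, Col1a1, the main collagen chain of bone, at 0.65 ± 0.18, and Ifitm5, a membrane protein restricted to osteoblasts, at 0.82 ± 0.24, none past the limit (adjusted p of 0.064, 0.0674 and 0.0695). With probe sets averaged, Col1a1 stood at 0.09 (adjusted p = 0.692). Against saline replicate 2 alone, 9 of the 23 rose and 1 fell, where 655 of all 13544 genes tested rose and 835 fell. Against saline replicate 1 alone 0 of the 23 changed, where 161 of 13489 rose and 493 fell. Nicotine 1.5 replicate 2 and saline replicate 2 were the pair of arrays richest in liver genes. With both left out, Omd stood at 1.06, Cthrc1 at 0.83, Col1a1 at 0.47 and Ifitm5 at 0.64.

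Of 9 genes of mineralization and phosphate handling, 1 rose and 1 fell. Anxa6, an annexin of the matrix vesicles in which mineral starts and of many other cells, rose by 1.28 ± 0.19 (adjusted p = 0.0119), with 616 to 718 on the nicotine arrays and 229 and 359 on the saline arrays. It passed the limit in each of 18 alternative settings and also at each single dose (adjusted p of 0.0361, 0.0425 and 0.0277). Every setting kept at least 1 saline array, and both were high in stomach genes, so that the settings do not bear on tissue make-up. The part of other tissues in the rise of Anxa6 was not tested. Slc20a1, a phosphate importer of many cells, fell by 1.02 ± 0.21 log2 units (adjusted p = 0.0312). Clec11a, a secreted growth factor of bone, at 1.05 ± 0.32 and Ahsg, the liver protein fetuin-A that keeps blood from mineralizing, at -4.44 ± 1.48 did not pass (adjusted p of 0.0822 and 0.0993). Ahsg read 986 on nicotine 1.5 replicate 2 and 298 and 2724.5 on saline replicates 1 and 2, and at most 13.7 elsewhere, so that its high readings lay on the arrays high in liver genes. The part of liver in them was not tested.

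The list of osteocyte genes had 7 tested, Dmp1 and Phex among them. Hyou1, a chaperone of the endoplasmic reticulum of most cells, was the 1 that changed, by -0.98 ± 0.17 (adjusted p = 0.0202). When the probe sets of each gene were averaged, Hyou1 stood at -0.22 and Slc20a1 at -0.56, short of the limit (adjusted p of 0.318 and 0.0679). Cd44, a cell-surface receptor for hyaluronan, stood at 0.44 ± 0.28 (adjusted p = 0.329). Apart from Anxa6, each of the 7 calls in the 4 lists was lost without either array of nicotine 3.0 or without nicotine 4.5 replicate 1 (adjusted p from 0.0518 to 0.109). Other single arrays ended some of the calls too. Without saline replicate 2, those of Bmp2, Fgfr1, Tnfrsf11b, Omd, Slc20a1 and Hyou1 were lost, and without saline replicate 1 those of Bmp2 and Tnfrsf11b. Ihh was not tested in these 2 settings. Without nicotine 4.5 replicate 2, Bmp2, Fgfr1, Ihh, Omd and Slc20a1 fell short, and without nicotine 1.5 replicate 2, Tnfrsf11b did. Array weights ended the calls of Bmp2, Fgfr1, Ihh, Tnfrsf11b and Slc20a1 (adjusted p from 0.0503 to 0.102), which left 0 of 21 regulators changed. When the pair richest in liver genes was left out, the calls of Fgfr1, Ihh, Tnfrsf11b, Slc20a1 and Hyou1 were lost (adjusted p from 0.0508 to 0.112). A pseudocount of 64 ended that of Tnfrsf11b (adjusted p = 0.0626).

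**Figure D4:**
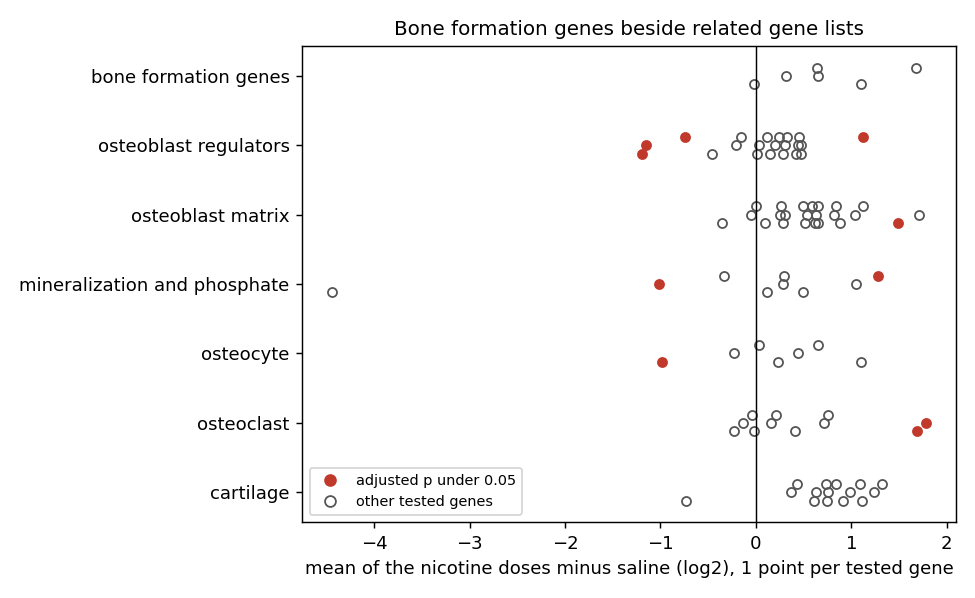
Mean of the nicotine doses minus saline (log2) for each tested gene of the bone formation set, 4 pathway lists, osteoclast genes and cartilage genes, with filled points for genes past the adjusted limit of 0.05. The osteocyte list repeats Dmp1 and Phex. None of the 6 bone formation genes is filled, whereas 8 pathway genes and 2 osteoclast genes are.

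Finally, the genes most like the set in pattern were sought, by Pearson correlation over the 8 arrays with the mean of the 6 standardized profiles. That mean profile was -0.75 and -1.04 on the saline arrays, 0.80 and 0.14 at nicotine 1.5, 0.22 and 0.11 at 3.0, and 0.86 and -0.34 at 4.5. The 8 nearest genes were Ccne1, Oxa1l, Camk2a, Ppp5c, Serf2, Tlx2, Rab6b and Adcy4, at r = 0.96 to 0.97. The members themselves ran from r = 0.27 for Sp7 to 0.86 for Sparc. Of 13581 other genes 87 exceeded r = 0.9, or 0.641%, and the arrays compared share their groups and normalization. Ccne1, a cyclin of the start of DNA replication, had 125 and 86.4 on the saline arrays, 192 and 150 at nicotine 1.5, 178 and 148 at 3.0, and 221 and 125 at 4.5.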

How the data were processed

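The authors' deposited values were linear intensities of 8 Affymetrix arrays, hybridized with biotin-labelled RNA per the labels, with 45101 probe sets in each. For their summarization and scaling, a method is not given in the sources used. Median intensities were 20.7 to 25.4 per array, and the number of arrays limits the precision. Symbols came from the platform annotation, updated by Entrez ID for 34754 of 34958 probe sets that name 1 gene (932 name several, 9211 none).

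Values were taken as log2(intensity + 16), which shrinks differences of dim genes. Array medians differed by 0.17, and arrays were quantile normalized. Each gene was represented by its probe set of highest mean level. A gene was tested where its average level reached the 40th percentile over probe sets (log2 level 4.94), which kept 13587 genes and all 6 measured members. The 4 group means were fitted to all arrays by lmFit and eBayes of limma 3.58.1, run in R 4.3.3. Residual degrees of freedom were 4, and 6.85 after moderation. Tests were two-sided, with Benjamini-Hochberg adjustment over all genes tested. The script was tested on simulated data.

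Members and lists were chosen with earlier results of these data known. Named genes are the 9 members, the up to 4 genes of smallest p in each pathway list, and the 8 most alike in pattern. Other genes were named after their values were seen, as the text says. The labels give no pairing by replicate number, and the main fit used none. Deviations of same-numbered arrays correlated at -0.22 to 0.33 between groups, over 0.1 in 1 of 6 pairs. With 2 arrays per group, these correlations cannot show whether same-numbered samples were handled together. No 2 arrays were identical. Alternatives were 18 settings of constant, normalization, filter, probe sets, weights, replicate block and arrays left out.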

Additional observations from a re-analysis of the deposited data

How the results depend on the processing

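Of the 6 measured genes, 0 changed in any comparison under 17 of the 18 alternatives. The exception was the fit without saline replicate 1, in which 2 (Ibsp and Dmp1) passed for the average of the doses and at each dose, so that leaving out 1 array gave 0 to 2 there and 0 for the slope and among the doses. Phex was not tested with the filter at the 60th percentile or with probe sets averaged. Leaving out 1 array gave 355 to 1490 changed genes of all for the average of the doses, 104 to 911 at 1.5, 52 to 994 at 3.0, 154 to 1367 at 4.5, 0 to 792 for the slope and 0 to 12 among the doses. The highest of these counts for the average and at each single dose came from the same fit without saline replicate 1. Array weights gave 618, 130 and 441 for the average, 1.5 and 4.5. The replicate block gave 849 for the average, 157, 278 and 522 at 1.5, 3.0 and 4.5, and 0 for the slope, and it changed no member's call. Among the named pathway genes it ended the calls of Ihh (adjusted p = 0.06) and Tnfrsf11b (adjusted p = 0.0693), which left 1 regulator higher and 1 lower. A pseudocount of 1 gave 157 at 1.5. Without the 2 arrays highest in liver genes the counts were 560 at 1.5, 896 at 3.0, 0 for the slope and 135 among the doses. The slope count, 109 as reported, was 164 with a pseudocount of 1, 203 as deposited, 242 with the filter at the 60th percentile, 2 with arrays centred on their medians, and 1 with array weights, averaged probe sets, no filter or a pseudocount of 64.

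Differences of Sp7 changed sign. Without the 2 arrays highest in liver genes it stood at 0.32 for the average, 0.00 at 3.0 and 0.02 for the slope, and at 4.5 it was -0.13 as deposited and -0.02 with arrays centred. Leaving out 1 array, it ran from -0.29 to 0.25 for the average, -0.1 to 0.45 at 1.5, -0.55 to 0.00 at 3.0, -0.23 to 0.32 at 4.5 and -0.07 to 0.02 for the slope. Alpl ran from -0.22 to 0.86, -0.16 to 0.93, -0.27 to 0.82, -0.25 to 0.84 and -0.05 to 0.12 in the same order. Ibsp ran from -0.04 to 2.69 at 4.5 and -0.08 to 0.41 for the slope, and without the 2 liver-high arrays stood at -0.04 and -0.09. None of these passed the limit except Ibsp at 4.5 without saline replicate 1. The cause was not tested.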
